A study of Caenorhabditis elegans with 6 samples.

Results

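Double-stranded RNA (dsRNA) of the nematode Caenorhabditis elegans was mapped through the marks that RNA editing leaves on it, and 209 regions of the autosome arms that were listed only when reads of repeated sequence were counted are described here. They were taken from the list of 664 editing-enriched regions that GNUMAP, a read aligner, gave with unique and repeat reads. A region was included when it lay on chromosomes I to V, when its midpoint fell in the first or last 25% of the chromosome, and when no region of the GNUMAP unique list (275 regions) overlapped it on either strand. The members were thus chosen by 2 deposited values, their coordinates and their lack of overlap with the unique list, which are given as description and are not results.

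The lists rest on 6 samples, each from its own pairing of strain and stage with 1 antibody. Whole worms of mixed stages, from wild-type N2 and from the mutant dcr-1(mg375), were each sampled with J2, an antibody that binds dsRNA. Embryos of both strains were each sampled through RDE-4, which binds dsRNA in RNA interference, and through DCR-1, the worm's Dicer, which cuts dsRNA into small RNAs. The mg375 allele affects the helicase domain of DCR-1. All reads were pooled ahead of region calling, so a region belongs to no strain, stage or antibody. No group had a replicate, and how deeply a region was sequenced is unknown. Each region carries a score deposited by the authors, which is a whole number, never below 2, and which the sources used here do not define.

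ADARs are enzymes that deaminate adenosines of dsRNA to inosine, which sequencing reports as guanosine, so clusters of A-to-G changes mark RNA that was double-stranded. In C. elegans much of this RNA comes from inverted repeats, in which a sequence is followed by its reverse complement, so that a transcript can fold back on itself. The autosome arms are rich in transposons and other repeats. A read from an inverted repeat can match both of its copies, in opposite orientation, and a read from a dispersed repeat can match distant copies.

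The 209 regions were mostly short. Their median length was 103 bp (95% interval 94 to 117 bp), the middle part of the distribution ran from 76 to 287 bp, and the extremes were 52 and 2262 bp. Of the 209, 98 (46.9%) were under 100 bp, against 37.7% of the whole list, and 24 were 1 kb or longer. Together they summed to 69.8 kb, of which the 15 longest held 34.4%. Plus-strand and minus-strand regions numbered 103 and 106. The median score was 5, the highest was 97, and 47 regions had a score of 2, the lowest in the list. Length and score rose together (Spearman's rho 0.79 across the 209 regions, which are not independent). Among regions under 100 bp no score was above 12, whereas the median of those of 1 kb or longer was 17.5.

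**Figure D1:**
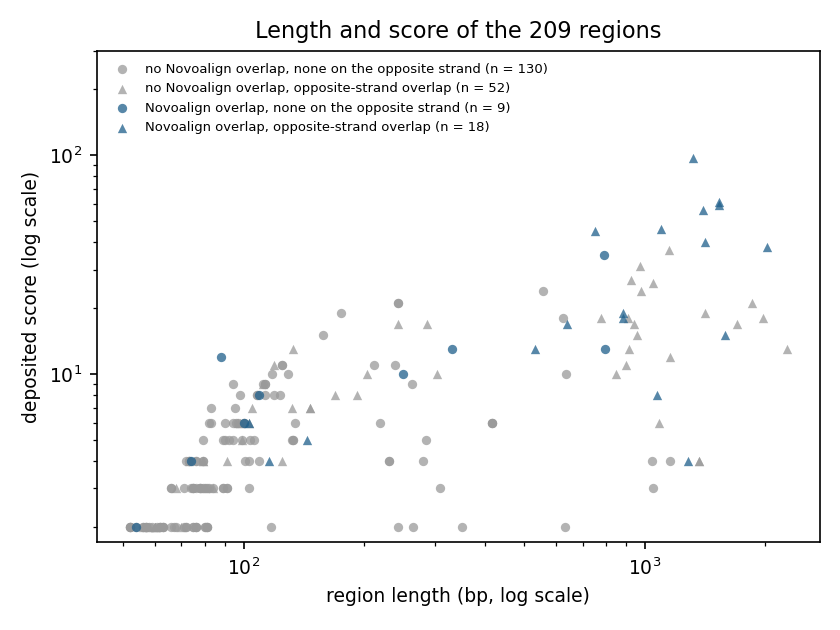
Each point is 1 of the 209 regions, with its length in bp against its deposited score, both on log scales; blue points overlapped a Novoalign region and triangles overlapped a region on the opposite strand. Long regions with high scores were mostly blue triangles, and most regions under 100 bp were grey circles.

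All 10 outer segments held such regions, from 14 in each segment of chromosome III to 33 in the left segment of IV. Left means the low-coordinate end. The left segment of I held 26 and its right segment 16. Chromosome II held 18 on the left and 29 on the right, and V held 17 and 27 in that order. Most of the summed length was on II, III and IV. Chromosome II held 23.9 kb in 47 regions and III held 16.3 kb in 28, whereas V held 5.84 kb in 44. The left segment of V had no region of 500 bp or more, and its longest was 203 bp. On the right segment of IV the 15 regions had a median of 76 bp. By distance from the chromosome end, 48 of the 209 lay in the outermost 5% of length, 49 between 5% and 10%, and 37, 39 and 36 in the next bands of the same width, so no band was empty or dominant in number. Lengths differed, with a median of 295.5 bp in the band from 20% to 25%, next to the limit of the selection. In the other bands it ran from 89 to 112.5 bp.

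**Figure D2:**
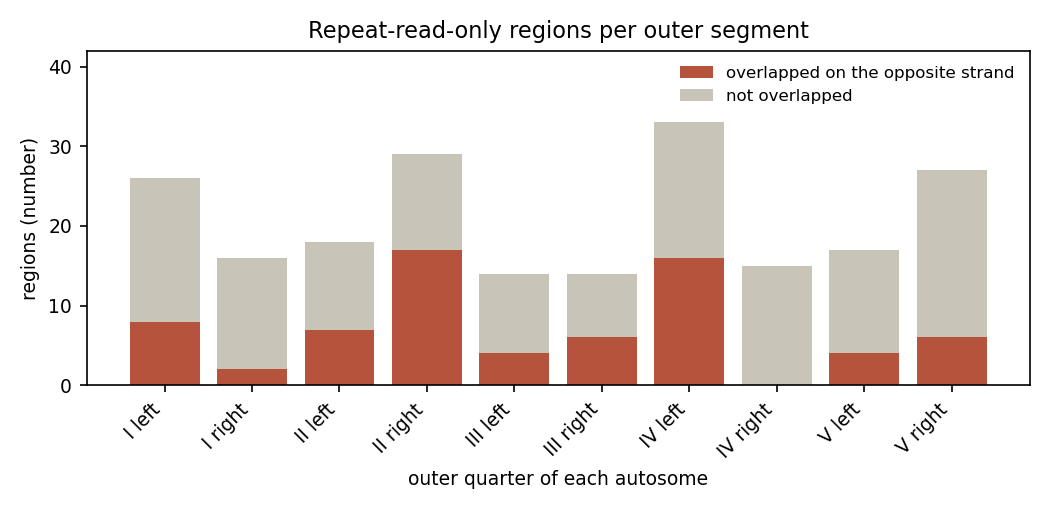
Bars give the number of regions in the low-coordinate (left) and high-coordinate (right) outer segment of each autosome; the red part was overlapped by a region on the opposite strand. Counts ran from 14 to 33, and the right segment of IV had no red part.

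Overlap on the opposite strand was frequent. Of the 209 regions, 70 (33.5%, exact interval 27.1 to 40.3%) overlapped a region of the same list on the other strand, where 24.5% of all 664 regions did. The share was 33.8% (47 of 139) for repeat-read-only regions of the inner segments and 23.5% (8 of 34) for those of X. Arm regions that unique reads also listed had such a partner in 13 of 217 cases (5.99%), a difference that was not tested because unique support was part of the selection. That low share was confined to the arms. Regions that unique reads also listed had a partner in 21 of 54 cases (38.9%) in the inner segments and in 4 of 11 (36.4%) on X. For 69 of the 70 the partner belonged to the 209 as well, so most overlaps were counted from both sides. Counted as pairs there were 35, with a median overlap of 116 bp, and in 15 of them one region lay wholly inside the other. The interval takes regions as independent and may thus be too narrow. When members within 2 kb were joined into loci, 31 of 147 loci (21.1%) held an overlapped region. No member overlapped another region on its own strand.

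Long regions were the ones most often found on both strands. A partner was present for 16 of 98 regions under 100 bp (16.3%), for 14 of 43 from 100 to under 200 bp (32.6%) and for 4 of 23 from 200 to under 500 bp (17.4%). It was present for 15 of 21 from 500 bp to under 1 kb (71.4%) and for 21 of 24 of 1 kb or more (87.5%). The 3 long regions without one were on chromosome II from 13819382 to 13820422 and from 13824795 to 13825949, and on III from 2311278 to 2312324, all with scores of 3 or 4. A longer region has more room to overlap, and what part of the higher shares from 500 bp upwards follows from length alone was not tested. Members with a partner had a median length of 587.5 bp and a median score of 10, and those without had 90 bp and 4.

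The 15 longest regions all had an opposite-strand partner, and 8 of them overlapped a Novoalign region. The longest was on chromosome III from 13531838 to 13534099 (minus strand, 2262 bp, score 13). Its plus-strand partner was only 97 bp long and lay at its low-coordinate edge, from 13531823 to 13531919. On the other arm of III, 1977 bp of the minus strand from 1480523 to 1482499 (score 18) overlapped 1852 bp of the plus strand from 1481012 to 1482863 (score 21) by 1488 bp, the largest overlap among the members. On chromosome II a minus-strand region from 3319908 to 3321922 (2015 bp, score 38) lay 111 bp from the nearest unique region. The overlap of the pair from 1480523 was 80.3% of its shorter region, whereas the longest region was covered only at its edge.

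Regions with high scores differed in how far the strands overlapped. The highest score, 97, belonged to the plus-strand region of chromosome IV from 349046 to 350368 (1323 bp), which lay wholly inside a minus-strand region from 348988 to 350381 (1394 bp, score 56). Next came the chromosome II pair from 994363 to 995898 (minus, 1536 bp, score 61) and from 994859 to 996394 (plus, 1536 bp, score 59). Its regions overlapped by 1040 bp, 67.7% of either length. On chromosome II 1100 bp of the minus strand from 11527776 to 11528875 (score 46) met 1411 bp of the plus strand from 11528870 to 11530280 (score 40) with an overlap of 6 bp, the smallest of all. Chromosome IV held 751 bp of the plus strand from 1884737 to 1885487 (score 45), of which 116 bp were overlapped, and 1150 bp of the same strand from 4087044 to 4088193 (score 37), of which 845 bp were. Among the 10 highest scores, 9 regions had a partner, and the exception was a minus-strand region of chromosome III from 10792420 to 10793212 (793 bp, score 35).

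Equal lengths on opposite strands were a second feature of these pairs. Within 10 kb of each other, the 209 regions formed 89 pairs on opposite strands and 30 on the same strand. In 20 of the 89 (22.5%) both regions had exactly the same length, against 0 of the 30. The remaining 455 regions of the list, taken among themselves, gave 19 of 113 (16.8%) and 0 of 66, so exact equality on opposite strands was also present in the rest of the list, and the difference was not tested. The 20 pairs involved 40 regions. Their scores were equal in 17 pairs and differed by at most 2 in the others. Regions of equal length on opposite strands are mirror images about the point midway between them, a layout that the copies of an inverted repeat also have.

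**Figure D3:**
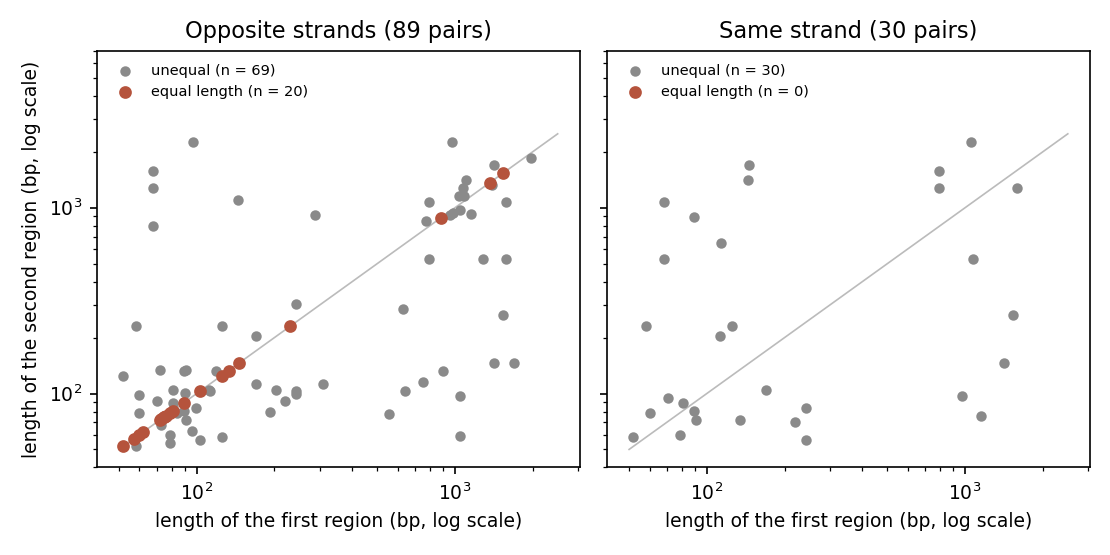
Each point is a pair of the 209 regions at most 10 kb apart, with the length of the lower-coordinate region against that of the other (bp, log scales), for opposite strands and for the same strand; red marks equal length. The 20 red points lie on the diagonal of the opposite-strand panel, and the same-strand panel has none.

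Mirrored pairs were found on chromosomes V (8 pairs), II (6), I (4) and IV (2), and none on III. Their lengths ran from 52 to 1536 bp, and 12 of the 20 were under 100 bp. For these short pairs, the number of regions in the list with the same length and score varied. It ran from 2, the pair alone (89 bp, score 3), to 9 (62 bp, score 2). What part of the short pairs is coincidence of small whole numbers was not tested. Of the 20 pairs, 12 had the minus-strand region first along the chromosome and 8 the plus-strand region. Overlap was present in 3 and 17 were apart, with gaps from 100 to 8866 bp and a median gap of 2091 bp.

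The overlapping mirrored pairs were the long ones. Besides the chromosome II pair of 1536 bp, chromosome II held one of 1364 bp, from 3589909 to 3591272 (minus) and from 3590506 to 3591869 (plus), both with a score of 4. Chromosome I held the other, 885 bp each, from 12925290 to 12926174 (plus, score 19) and from 12925374 to 12926258 (minus, score 18). The 1364 bp pair thus had low scores for its length and no Novoalign overlap, whereas both other pairs overlapped Novoalign regions on each strand.

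Separate mirrored pairs were shorter. On chromosome V, 230 bp on the plus strand from 19968506 to 19968735 faced 230 bp on the minus strand from 19969714 to 19969943, both with score 4. Another pair on V had 133 bp each, from 18888024 to 18888156 (plus) and from 18888610 to 18888742 (minus), both with score 5. A chromosome IV pair of 125 bp, from 1617869 to 1617993 (minus) and from 1623194 to 1623318 (plus), had a score of 11 on each side across a gap of 5200 bp. The smallest gap, 100 bp, separated 73 bp regions on chromosome I from 2175506 to 2175578 (minus) and from 2175679 to 2175751 (plus). At one locus the 25% limit fell inside such a pair, since 632 bp on I from 11309911 to 11310542 (plus) was included and 632 bp from 11302781 to 11303412 (minus) was not, each with a score of 2.

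There were 2 axes of symmetry that carried more than 1 mirrored pair. On chromosome II, 60 bp regions starting at 14144501 (plus) and 14146071 (minus) and 79 bp regions starting at 14144516 (minus) and 14146037 (plus) shared 1 centre to the base. On chromosome V, 89 bp regions starting at 1831482 (minus) and 1840437 (plus) enclosed 81 bp regions starting at 1834122 (minus) and 1837805 (plus), again about the same centre. Another locus of chromosome II was symmetric in part. There, 146 bp regions from 11757943 to 11758088 (plus) and from 11760749 to 11760894 (minus) shared their centre with the outer limits of unequal regions from 11757578 to 11758989 (minus, 1412 bp, score 19) and from 11759561 to 11761259 (plus, 1699 bp, score 17).

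**Figure D4:**
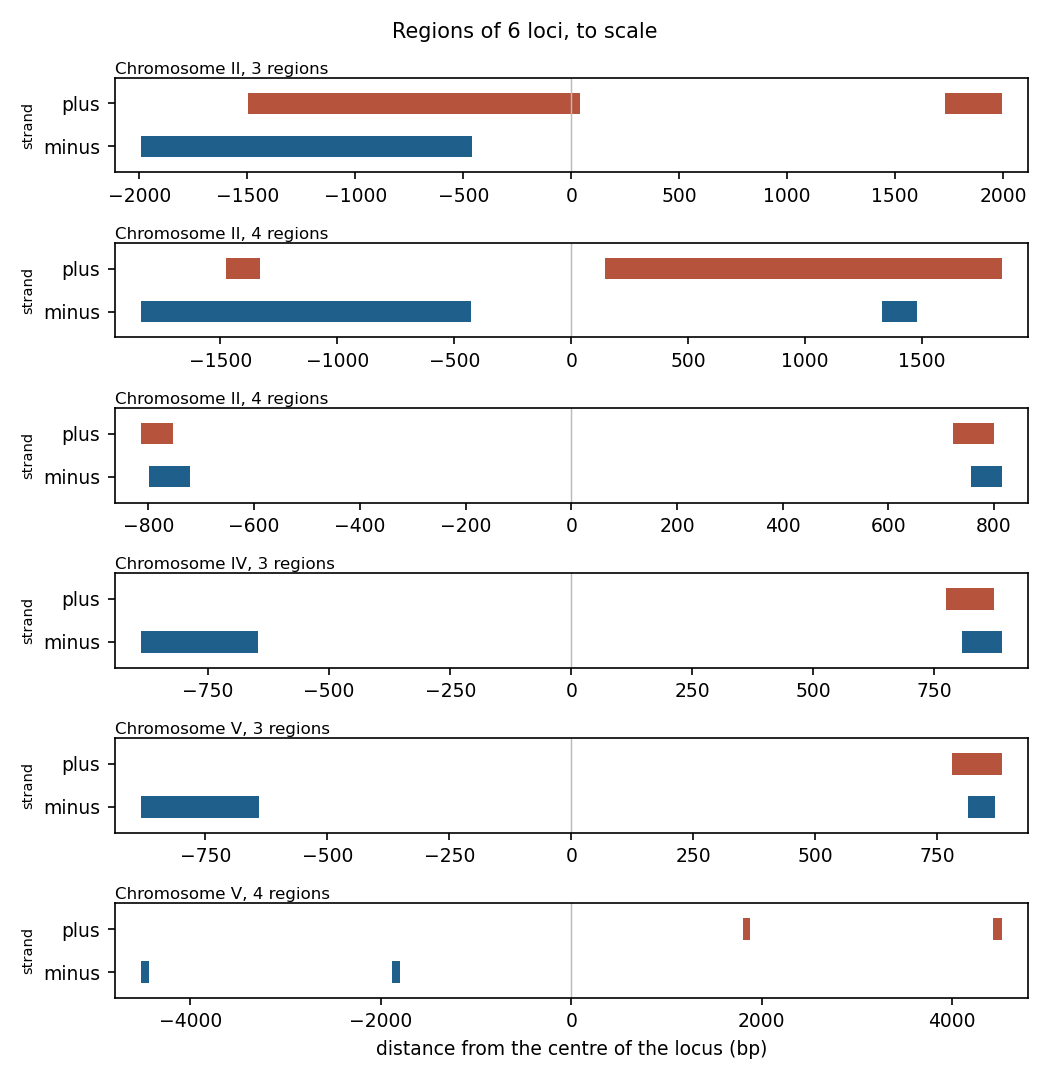
Regions of 6 loci are drawn to scale by strand, against the distance in bp from the centre of each locus (red, plus strand; blue, minus strand; each panel has its own scale). The panels with 4 regions are symmetric with strands exchanged, except for the inner limits of the long regions of the first of them, and the chromosome IV and V panels with 3 regions have nearly the same layout.

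Regions were grouped in compact loci. Another region of the list lay within 2 kb of 114 of the 209 (54.5%, exact interval 47.5 to 61.4%), where 41.7% of all regions had one. It lay on the opposite strand for 110 of them and on the same strand for 36. Overlapping regions counted as neighbours, so the 114 include all 70 members overlapped on the opposite strand. Of the 139 members without such overlap, 44 (31.7%) had a neighbour. When the members were chained within 2 kb they formed 147 loci, of which 103 held a single region and 44 held 2 or more. In 43 of these 44 both strands were present. Arm regions that unique reads also listed had a neighbour within 2 kb in 13.8% of cases (30 of 217), and repeat-read-only regions of the inner segments in 58.3% (81 of 139). Regions that unique reads also listed had one in 55.6% of cases (30 of 54) in the inner segments and in 36.4% (4 of 11) on X. Close neighbours were thus not particular to repeat-read-only regions.

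The locus with most regions was on chromosome IV from 4349203 to 4355249. It held 6 regions over 6047 bp, 3 on each strand, and 5 of them overlapped Novoalign regions. Its longest regions were on the plus strand, 1583 bp from 4351314 to 4352896 (score 15) and 1281 bp from 4353969 to 4355249 (score 4). Loci of 4 regions, 2 on each strand, were the 2 on chromosome II with the shared centres described above and 2 on chromosome V, from 182083 to 183514 and from 19967050 to 19969943. None of these 4 loci overlapped a Novoalign region.

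Identical lengths and scores also recurred, both within loci and far apart. Of the 111 members of at least 100 bp, 29 (26.1%) had the same length and the same score as another region of the list, where 33 of the 303 other regions of that length did (10.9%). Among all regions of at least 100 bp, 62 of 414 did. For 17 of the 29 the matching regions lay on 2 or more chromosomes. The other 12 had matches on 1 chromosome only. Most of them were the mirrored pairs of 1364, 230, 146, 133 and 125 bp described above, which are thus counted again here. The 303 other regions were not split in this way or by class. Whether the higher share is particular to the arms was not tested. Regions of 417 bp with score 6 were on chromosome I from 14022908 to 14023324 (minus), on III from 2120227 to 2120643 (minus) and on III from 12865215 to 12865631 (plus). Regions of 100 bp with score 6 were on chromosomes I, II, IV and X. Matches of short regions with low scores can also be coincidences of small whole numbers, and no sequence was used to compare them.

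One layout was present on 2 chromosomes. On chromosome IV a minus-strand region of 242 bp with score 21 started at 1270675, followed by a plus-strand region of 99 bp starting at 1272338 and a minus-strand region of 84 bp starting at 1272370. On chromosome V a minus-strand region of 242 bp with score 21 started at 17095637, followed by plus-strand 103 bp at 17097300 and minus-strand 56 bp at 17097332. The starts were 1663 and 1695 bp apart in both, to the base. Offsets of 6851 combinations of 2 member pairs were compared, and 16 matched exactly, 7 of them at 1 kb or more, including matches within mirrored loci. The shortest recurring step was a plus-strand start followed by a minus-strand start 15 bp further on, seen on chromosomes I (2734828), II (14144501), III (13531823) and IV (3317993). These were 4 of 21 opposite-strand member pairs with starts under 100 bp apart. The plus-strand regions on I, II and IV were 60 or 70 bp long with a score of 2. Lengths of the minus-strand regions were unlike, from 79 to 2262 bp. These loci were singled out after their values were seen.

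Novoalign, the other aligner, listed few of these places. Of the 209 regions, 27 (12.9%, exact interval 8.69 to 18.2%) overlapped a region of its list of unique and repeat reads (260 regions), where 27.1% of all 664 did. The share was 16.5% (23 of 139) for repeat-read-only regions of the inner segments and 11.8% (4 of 34) for those of X. It was 44.7% (97 of 217) for arm regions that unique reads also listed. Lack of unique support was part of the selection, so the contrasts with these arm regions and with the whole list were not tested. Both aligners used the same reads, so overlap is not a second experiment. Novoalign overlap went with size, with a median of 793 bp and a median score of 13 for the 27 regions against 97.5 bp and 4 for the other 182. A longer region has more room to overlap here too, and what part of this follows from length alone was not tested. The left segment of IV held 10 of the 27, each segment of I held 4 and each segment of II held 3. By distance from the chromosome end, 10 of the 27 lay in the band from 20% to 25%, next to the limit of the selection. These are not separate places, since the 27 regions lay in 16 loci. The locus on IV from 4349203 to 4355249 held 5 of the 10, and the locus on II from 11527685 to 11530280 held 3.

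Limits drawn by the aligners differed at every place of overlap. No member had the same start and end in both lists, and 1 combination shared a single limit. In 20 of the 27 the Novoalign region was on the same strand, and in 7 it was on the opposite strand alone. The longest Novoalign counterpart was longer than the region in 16 cases and shorter in 11. For the chromosome II pair of 1536 bp, Novoalign gave 1657 bp on the minus strand and 1686 bp on the plus strand, so both strands were listed by both aligners. At the chromosome IV pair with the highest scores it gave 863 bp on the plus strand and 54 bp on the minus strand. Although absent from the GNUMAP unique list, 3 of the members overlapped Novoalign unique regions. These were 74 bp on chromosome I from 1364248 to 1364321 (minus), where Novoalign listed 753 bp, and the adjoining chromosome II regions from 11527776 and from 11528870, where it listed 70 and 58 bp.

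**Figure D5:**
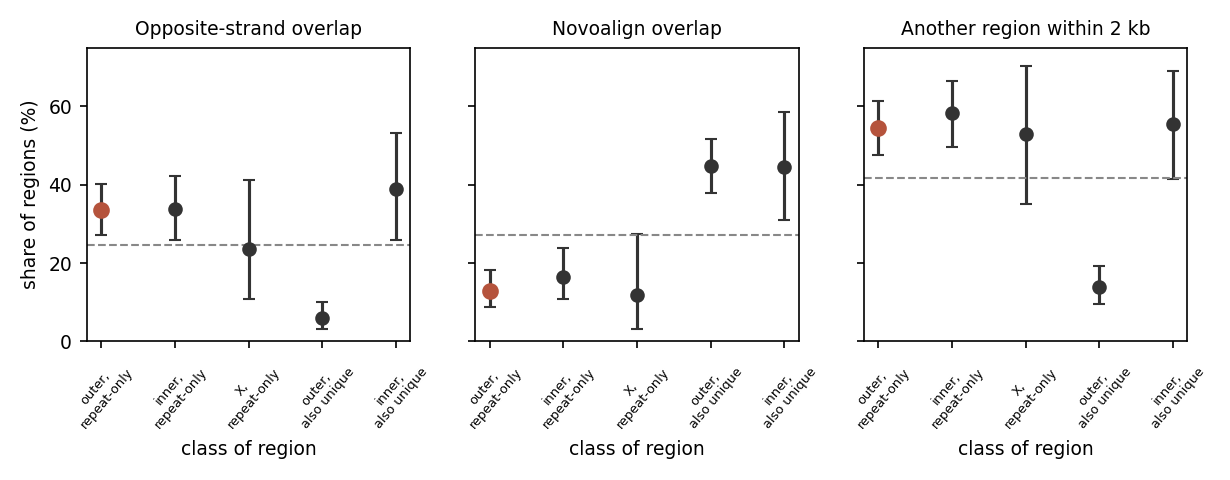
Points give the share of regions (%) in 5 classes of the GNUMAP list with repeat reads that overlapped a region on the opposite strand, overlapped a Novoalign region, or had another region within 2 kb; bars are exact 95% intervals over regions and dashed lines are the share of all 664. The 209 arm regions (red) were close to the repeat-read-only regions of the inner segments, at 33.5 against 33.8%, 12.9 against 16.5% and 54.5 against 58.3%.

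The arm loci were compared with repeat-read-only loci of the inner segments, a class defined in the same way except for position. Loci, chained within 2 kb, were counted once, and p values of Fisher's exact test (two-sided) were adjusted by Benjamini-Hochberg over the 3 tests made. The test takes loci as independent. Mirrored pairs with gaps above 2 kb, and distant regions of equal length and score, were still counted as separate loci. Whether such loci share repeat reads is unknown, so the p values may be too small. Arm loci less often held a region longer than 133 bp, the median of the list, with 51 of 147 (34.7%) against 52 of 95 (54.7%), a difference of -20.0 points (interval -32.1 to -7.24, exact test, adjusted p = 0.0069). Counted as single regions, 76 of 209 (36.4%) were longer than that median, where 49.8% of all regions were. The difference did not pass the exact test without chromosome I, IV or V (-17.2, -14.9 and -15.0 points, adjusted p = 0.056, 0.15 and 0.16) or with loci chained within 5 kb (-15.8 points, adjusted p = 0.077). No difference was detected in opposite-strand overlap, with 31 of 147 loci (21.1%) against 22 of 95 (23.2%), a difference of -2.07 points (-13.1 to 8.27, exact test, adjusted p = 0.75). Nor was one detected in Novoalign overlap, with 16 of 147 (10.9%) against 15 of 95 (15.8%), a difference of -4.91 points (-14.5 to 3.61, exact test, adjusted p = 0.49). These intervals leave room for differences of over 10 points in either measure.

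Regions next to the limits of the selection were as follows. Just inside the 25% limit were 3 regions of chromosome I, from 3762333 to 3762435 (103 bp), from 11309911 to 11310542 (632 bp) and from 3761431 to 3761533 (103 bp), at 5.72, 5.91 and 6.63 kb from it. Just outside were 3 of chromosome I, starting at 11302781, 11301474 and 11300490, at 1.22, 2.82 and 3.80 kb. The nearest to a unique region were 331 bp on chromosome I from 2060179 to 2060509, 51 bp away, 109 bp on V from 18796311 to 18796419, 62 bp away, and the chromosome II region from 3319908. Of the 209, 9 lay within 2 kb of a unique region, and the median distance was 65.8 kb. The selection excluded overlap, and no other positions were measured, so these distances are description only.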

How the data were processed

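RNA bound by antibodies against dsRNA, RDE-4 or DCR-1 was sequenced, and per the series' design text 1 set of alignments was made from the 6 samples together. The submitters' processing notes name genome build ce10, Novoalign 2.07.13 and SAMtools 0.1.19. The aligner and read class of each of the 4 lists come from its name. The sources used here do not give GNUMAP's version, the calling rule or how repeat reads were placed. The score is as deposited by the authors, was not rescaled, and served to describe and rank regions within a list.

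Positions are 1-based ce10 coordinates. The annotation at hand was of a later build, so genes and sequences were not used here, and its last annotated base per chromosome served only as the approximate length. Overlap meant at least 1 bp. Shares have exact Clopper-Pearson intervals, medians have intervals from binomial ranks, and differences of shares have Newcombe intervals, all at 95% and covering only the counting of regions or loci. These intervals take regions or loci as independent, although overlapping and neighbouring regions were each counted, and so may be too narrow. A locus that crossed a segment limit went with most of its regions. Python 3.11.15, numpy 2.4.6, pandas 2.3.3, scipy 1.17.1 and matplotlib 3.10.9 were used, and overlap, pairing and chaining were tested on simulated regions.

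The regions, and what was looked at in them, were chosen with earlier results of these data known. Named regions are the 15 longest, the 10 highest scores, mirrored pairs and pairs within 5 kb of lengths within 5%, the 5 largest loci, members in the Novoalign unique list, groups of equal length and score, and those next to the limits of the selection, shown in part. Exact equality of length within 10 kb, shared centres and recurring offsets were added after the pairs were seen.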

Additional observations from a re-analysis of the deposited data

How the results depend on the processing

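Of 98 recomputed values under alternative settings, 86 were counted as unchanged. For shares and the median length this meant within the interval of the reported value. For differences it meant the same sign and the same side of the threshold. The number of regions has no interval, and 12 of its settings, from 147 to 243, were counted as unchanged without such a criterion. The value of 147 counts loci chained within 2 kb and not single regions. The number of regions ran from 119 to 243. Keeping only scores of at least 5 left 119 regions, with a median length of 175 bp and a Novoalign share of 21.0%. The share with a neighbour was 66.0% within 5 kb and 17.2% on the same strand alone. The share overlapped on the opposite strand ran from 27.7 to 39.5%. The difference between arm and inner loci in opposite-strand overlap, which never passed the test, changed sign with scores of at least 5 (0.889 points), without chromosome I (1.90 points) and with loci chained within 5 kb (2.20 points). The difference in long loci kept its sign under all 10 alternatives, from -28.6 to -14.9 points, and did not pass without chromosome I (-17.2), IV (-14.9) or V (-15.0) or within 5 kb (-15.8). The cause was not tested. No paired analysis was possible because each group had 1 sample and all lists came from the pool. Read depth, and so which places were too shallow to be listed, is unknown.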
